A study of Mus musculus with 20 samples.

Results

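The 9 genes described here encode steps of fatty acid beta-oxidation in the peroxisome: Abcd2 and Abcd3 (import of acyl groups), Acox2 (oxidation), Ehhadh and Hsd17b4 (hydration and dehydrogenation), Acaa1a and Acaa1b (thiolysis), Crat (export of the products) and Pex11a (division of the organelle). They were followed through all probe sets whose platform annotation gives exactly 1 gene symbol and that symbol is on this list, which made 18 of the 45037 probe sets and 9 of the 18193 named genes on the array. Livers came from male C57BL/6J mice, an inbred strain, that were 8 weeks old. After an acclimation period on low-fat diet for all mice, 10 mice stayed on a diet with 10% of energy from fat and 10 received a diet with 45% of energy from fat for 4 weeks. All were fasted for 16 h and killed on day 30, and each liver was hybridised to its own Affymetrix 3′ expression array. High-fat groups that were also given a maple syrup extract were not used here.

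Peroxisomes shorten very-long-chain, branched and dicarboxylic fatty acids and the side chain of bile acid precursors, substrates that mitochondria handle poorly. The pathway runs in order through an acyl-CoA oxidase that makes hydrogen peroxide, a bifunctional hydratase and dehydrogenase, and a thiolase, and the shortened products leave largely as carnitine esters. In rodent liver many of these genes are known targets of the fatty acid receptor PPAR-alpha, which is active in fasting.

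The values are the submitters' normalised probe set scores. Their level runs like a log2 intensity, but differences between arrays are compressed, and by different amounts in different probe sets: the SD within diets was 0.00126 for the Ehhadh probe set and 3.12e-06 for 1 of the Abcd3 probe sets. Every value below is therefore a distance in units of that probe set's own SD within diets, measured from the mean of the low-fat mice. A standardised difference is the distance between the diet means on this scale, with its 95% interval, and is no fold change. Arrays measured whole liver, in which fewer cells of a type and less RNA per cell cannot be told apart. Array medians ran from 6.56702 to 6.56720 in low-fat and from 6.56705 to 6.56719 in high-fat livers, 1.33 SD higher on the high-fat diet. The medians thus differed by far more than the SD of many probe sets, such as 3.12e-06. Centring arrays on their medians makes the scores of such probe sets follow the medians in reverse, whatever the gene does. All 12 probe sets of the 6 measured hepatocyte marker genes lay above the array median. Of the 8 marker lists, 3 held a gene past the threshold, where 2.32% of all probe sets passed. Ttr of hepatocytes was lower on the high-fat diet, with 2 of the 12 probe sets of its list past the threshold. Of these 12 probe sets 6 stood higher and 6 lower. Rgs5 of stellate cells (1 of 16 probe sets) and Cela1 of pancreatic acinar cells (1 of 7) were higher. The part of these cell types in the results was not tested.

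The promoters of 4 members are shown because the liver scores of Ehhadh and Pex11a varied together between mice, and because Acaa1a and Acaa1b are a closely related gene pair that was compared directly. Sequences are RefSeq's, build GRCm38.p6, from 250 bases before to 50 bases after the transcription start, 5′ to 3′. PPAR-alpha binds with its partner to direct repeats of a hexamer, and capitals mark the hexamer AGGNCA on either strand (TGNCCT in the other orientation).
Ehhadh promoter (chr16:21787785-21788084, minus strand): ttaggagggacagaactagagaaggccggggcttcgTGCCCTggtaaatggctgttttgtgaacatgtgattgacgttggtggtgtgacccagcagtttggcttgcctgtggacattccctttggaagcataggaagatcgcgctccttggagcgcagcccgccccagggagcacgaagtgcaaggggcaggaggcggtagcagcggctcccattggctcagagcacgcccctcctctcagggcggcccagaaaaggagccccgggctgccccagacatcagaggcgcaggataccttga
Pex11a promoter (chr7:79743082-79743381, minus strand): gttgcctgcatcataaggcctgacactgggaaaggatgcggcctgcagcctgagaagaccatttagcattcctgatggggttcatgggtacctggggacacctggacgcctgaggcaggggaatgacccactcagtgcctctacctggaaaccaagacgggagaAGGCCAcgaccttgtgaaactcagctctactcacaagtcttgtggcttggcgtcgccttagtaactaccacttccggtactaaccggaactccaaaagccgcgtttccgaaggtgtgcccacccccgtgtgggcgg
Acaa1b promoter (chr9:119157044-119157343, minus strand): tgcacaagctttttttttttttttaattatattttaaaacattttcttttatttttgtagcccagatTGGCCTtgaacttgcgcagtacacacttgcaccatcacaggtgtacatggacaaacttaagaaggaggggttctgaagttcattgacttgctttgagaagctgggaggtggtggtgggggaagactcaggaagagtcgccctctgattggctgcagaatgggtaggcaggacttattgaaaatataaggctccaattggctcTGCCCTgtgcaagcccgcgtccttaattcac
Acaa1a promoter (chr9:119341044-119341343, plus strand): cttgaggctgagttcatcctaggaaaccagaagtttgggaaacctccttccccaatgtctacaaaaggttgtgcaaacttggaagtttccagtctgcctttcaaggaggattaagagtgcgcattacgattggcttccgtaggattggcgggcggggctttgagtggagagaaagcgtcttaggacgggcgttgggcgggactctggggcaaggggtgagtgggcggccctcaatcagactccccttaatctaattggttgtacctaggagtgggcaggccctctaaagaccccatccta
The hexamer occurs in the windows of Ehhadh, Pex11a and Acaa1b and not in that of Acaa1a, and it is common, with a match in 57.2% of 32851 promoter windows of the same length. A repeat of this hexamer with 1 base between the copies, searched on both strands, matched 0 of the 8 windows held for 6 of the 9 genes, against 0.381% of all windows, which says only that these letters are not within these windows.

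The 16 h fasted liver of high-fat mice held no member probe set past the threshold. By limma with Benjamini-Hochberg adjustment over all probe sets, 0 of 18 had an adjusted p under 0.05, where 2.32% of all probe sets did. The smallest adjusted p among them was 0.106. The exact Wilcoxon rank sum test also called 0 after adjustment, where it called 1.75% of all probe sets. At an unadjusted p under 0.05 limma gave 7 of 18 (6 lower and 1 higher on the high-fat diet) and the Wilcoxon test gave 7 of 18, against 15.1% and 13.5% of all probe sets. Of all probe sets 7.86% were higher and 7.28% lower at this limma threshold. These 7 came from only 3 genes, Abcd2, Crat and Acaa1a, and probe sets of a gene share its transcript. The median standardised difference was -0.18 over the members, with 9 above 0 and 9 below, and 0.0355 over all probe sets, of which 52.2% lay above 0. In simulated scores of the same spread, 200 of the 45037 probe sets were shifted. The recovery was 0% for a shift of 1 SD, 50% for 2 SD and 92% for 3 SD. In the liver scores 1043 probe sets passed, and with more calls the adjusted threshold is less strict. The simulated recovery is thus no measure of what was missed among the members. The count of members past the threshold became 3 after quantile normalisation, where 10.8% of all probe sets passed, and 12 after median centring of the arrays, where 85.7% passed.

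**Figure D1:**
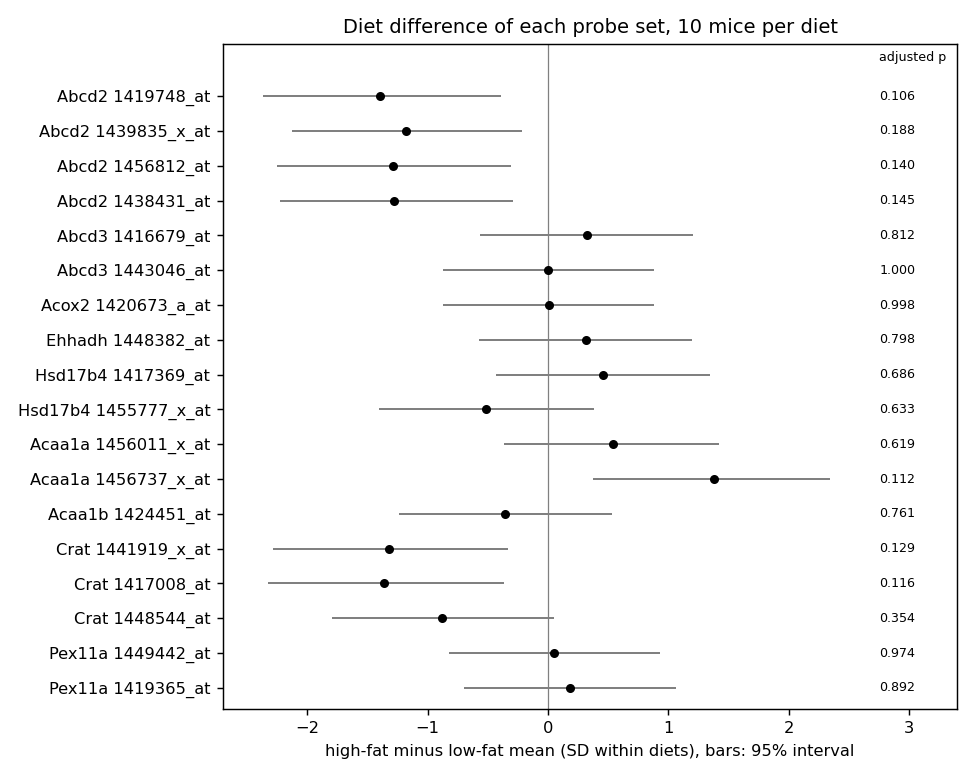
Standardised difference between diets (horizontal axis, high-fat minus low-fat mean in units of the SD within diets) for each of the 18 probe sets, 10 mice per diet, with 95% intervals as bars and the limma adjusted p at the right. The 4 Abcd2 probe sets and 2 of the 3 Crat probe sets have intervals below 0, 1 Acaa1a probe set has an interval above 0 (turned to -0.98 by quantile normalisation and -0.55 by median centring), and the smallest adjusted p is 0.106.

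Of the genes for import into the peroxisome, Abcd2 stood lower on the high-fat diet in all 4 of its probe sets without passing the threshold, and Abcd3 did not. Abcd2 encodes a membrane transporter for very-long-chain and polyunsaturated acyl-CoA. In low-fat mice its probe set 1419748_at had a lowest value of -1.02, a median of -0.46 and a highest value of 3.08. In high-fat mice the same 3 values were -2.33, -1.52 and -0.48. All 10 high-fat mice lay below the low-fat median and 7 lay below every low-fat mouse, while the rest overlapped. The standardised difference was -1.40 (95% interval -2.37 to -0.39, n = 10 per diet), with a limma adjusted p of 0.106. Low-fat replicate 8 stood apart at the top, and without it the difference was -1.59 with an adjusted p of 0.0856.

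The other 3 Abcd2 probe sets had standardised differences of -1.18 to -1.29, with limma adjusted p-values of 0.140 to 0.188. After quantile normalisation Abcd2 1419748_at (-1.47, limma adjusted p = 0.0410) and 1456812_at (-1.42, limma adjusted p = 0.0463) passed. Probe sets 1439835_x_at, 1456812_at and 1438431_at each had 8 of 10 high-fat mice below the low-fat median. Probe sets 1419748_at, 1438431_at and 1456812_at ordered the mice alike (Spearman 0.74 to 0.93 with diet means removed), and 1439835_x_at did not follow them (0.19 to 0.23). All 4 lay below the median of their arrays, so the gene was read at the low end of the score.

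Abcd3, the abundant peroxisomal membrane transporter that takes up branched and dicarboxylic acids and bile acid precursors, gave no such shift. Its probe set 1416679_at ran from -1.57 over a median of -0.15 to 1.38 in low-fat mice. In high-fat mice it ran from -1.02 over 0.37 to 2.59. The diets overlapped almost fully, with a standardised difference of 0.32 (95% interval -0.57 to 1.20). Its other probe set, 1443046_at, stood at 0.000314 (95% interval -0.88 to 0.88). That probe set lay below the median of the arrays, and the Abcd3 probe sets did not order the mice alike (Spearman 0.22 with diet means removed). After median centring of the arrays, which moved the median of all probe sets to -1.29, the Abcd3 probe sets stood at -1.30 (1416679_at) and -1.28 (1443046_at), both with a limma adjusted p of 0.0170. Their SDs within diets, 3.12e-06 and 1.82e-05, lie below the spread of the array medians, so these centred values mostly return the medians.

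A direct comparison of the transporters, added after these values were seen, took in each mouse the mean standardised score of Abcd2 minus that of Abcd3, here in units of the SD over all 20 mice. That contrast was 0.63 ± 0.73 in low-fat and -0.63 ± 0.88 in high-fat mice (mean ± SD, n = 10 each). The change of -1.26 (95% interval -2.02 to -0.50) had a permutation p of 0.00250, or 0.00500 adjusted over the 2 gene pairs compared (two-sided, 100000 resamples). The pair was chosen after its values in these same mice were seen, and the p-value does not allow for that choice. In 9 of 10 high-fat mice the contrast lay below the low-fat median. The change was -1.16 after quantile normalisation, and -0.12 (permutation p = 0.781) when arrays were centred on their medians. After that centring the Abcd3 scores mostly follow the array medians in reverse, so the value of -0.12 says little about the genes.

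The oxidation and hydration steps differed by less than the spread between mice. Acox2, the oxidase for branched-chain and bile acid precursor acyl-CoA, had a standardised difference of 0.00547 (95% interval -0.87 to 0.88), and its high-fat mice, from -2.15 to 1.92, reached past the low-fat mice, from -0.82 to 1.80, at both ends. Ehhadh encodes the bifunctional enzyme of the inducible pathway. Its low-fat mice had a lowest value of -2.23, a median of 0.29 and a highest value of 1.27. Its high-fat mice had -1.49, 0.31 and 1.39. Of the high-fat mice 5 of 10 exceeded the low-fat median, and the standardised difference was 0.31 (95% interval -0.57 to 1.19, limma adjusted p = 0.798). Hsd17b4, the bifunctional enzyme for branched and bile acid substrates, gave 0.46 (95% interval -0.44 to 1.34) with 1417369_at and -0.52 (95% interval -1.40 to 0.38) with 1455777_x_at. After median centring they stood at -1.19 (limma adjusted p = 0.0199) and -0.95 (limma adjusted p = 0.0443). These Hsd17b4 probe sets did not order the mice alike (Spearman 0.0406 over 20 mice), and the values of 1455777_x_at spanned -1.68 to 1.79 in low-fat mice against -1.21 to 0.00 in high-fat mice.

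**Figure D2:**
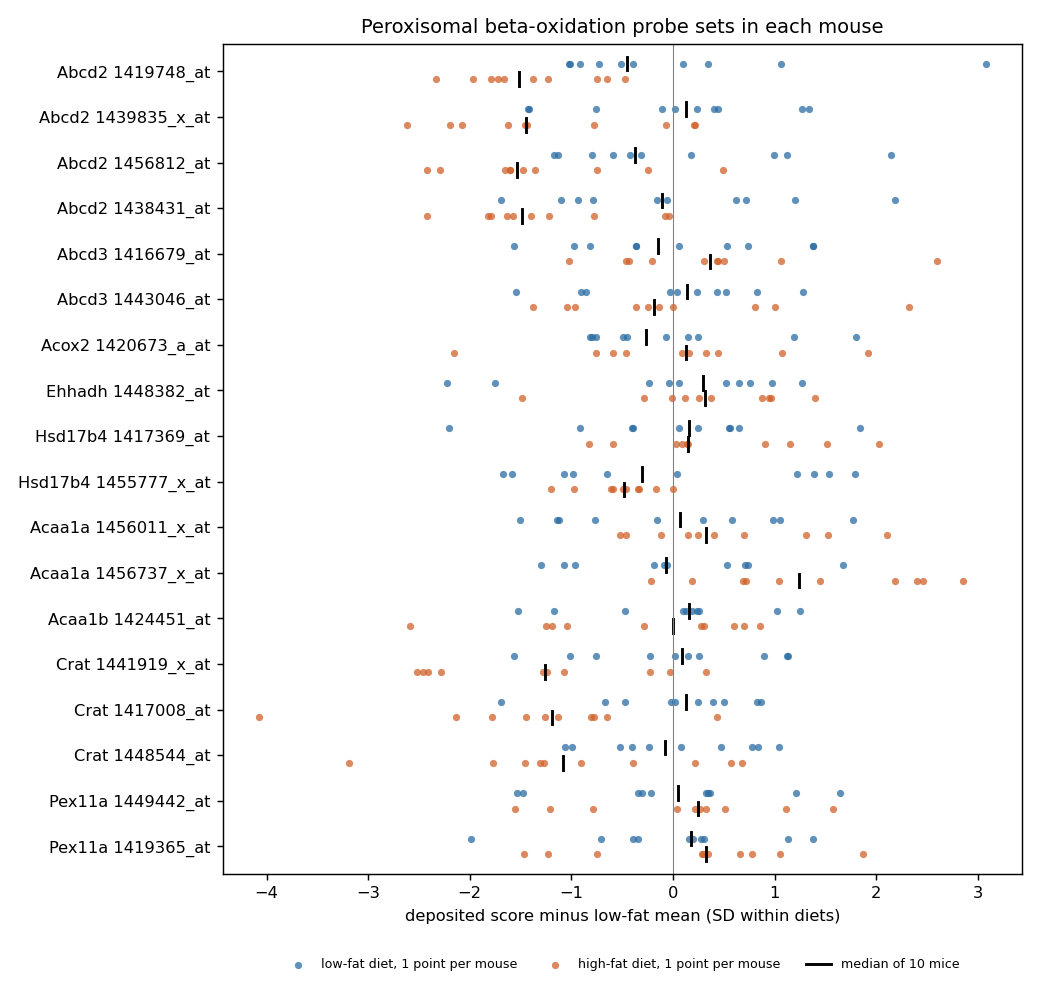
Score of each member probe set in each mouse (horizontal axis, distance from the low-fat mean in units of the SD within diets), with low-fat mice in blue, high-fat mice in orange and black bars for the medians of 10 mice. The orange points of Abcd2 and Crat sit to the left of the blue ones, those of Acaa1a 1456737_x_at to the right (-0.98 after quantile normalisation and -0.55 after median centring), and the diets overlap in every row.

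Thiolase cleaves the chain at the end of each round and is encoded in mice by the neighbouring copies Acaa1a and Acaa1b. For Acaa1a, probe set 1456737_x_at ran from -1.30 over a median of -0.07 to 1.68 in low-fat mice and from -0.22 over 1.24 to 2.85 in high-fat mice. On the high-fat diet 9 of 10 mice exceeded the low-fat median and 4 exceeded every low-fat mouse. The standardised difference was 1.38 (95% interval 0.38 to 2.34, limma adjusted p = 0.112). The other Acaa1a probe set, 1456011_x_at, stood at 0.54 (95% interval -0.36 to 1.42). These Acaa1a probe sets ordered the mice only partly alike (Spearman 0.45 with diet means removed). Against the Acaa1b probe set, 1456011_x_at had 0.55 and 1456737_x_at had -0.02. After quantile normalisation both turned below 0, to -0.98 and -0.72, and after median centring to -0.55 and -0.40, so the direction for Acaa1a depended on the scaling.

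For Acaa1b, probe set 1424451_at stood at -0.36 (95% interval -1.24 to 0.53), with 5 of 10 high-fat mice above the low-fat median. A further 2 probe sets are annotated to both copies and fall outside the rule. They stood at -0.35 and -0.11, and they ordered the mice as the Acaa1b probe set did (Spearman 0.98 and 0.97). The contrast of Acaa1a minus Acaa1b, also chosen after the values were seen, rose from -0.60 ± 0.86 to 0.60 ± 1.1 (mean ± SD, n = 10 each), a change of 1.20 (95% interval 0.27 to 2.13, permutation p = 0.0124, also 0.0124 adjusted over the 2 pairs). Here too the p-value does not allow for the choice of the pair. The contrast exceeded the low-fat median in 7 of 10 high-fat mice. After median centring the change was 0.60 (permutation p = 0.0026), where the Acaa1b scores (SD within diets 1.78e-05) largely follow the array medians in reverse. The contrast could not be computed after quantile normalisation, which left Acaa1b with 1 value on all arrays. Both Acaa1a probe sets carry the suffix of probes that can bind related transcripts, and the copies are near-identical, so their signals may not be fully separate.

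Crat encodes carnitine acetyltransferase, which turns short acyl-CoA into carnitine esters in peroxisomes and mitochondria. Probe set 1417008_at had a lowest value of -1.69, a median of 0.13 and a highest value of 0.87 in low-fat mice. In high-fat mice these values were -4.07, -1.19 and 0.43. Of the high-fat mice 9 of 10 lay below the low-fat median and 3 below every low-fat mouse. The standardised difference was -1.36 (95% interval -2.33 to -0.37, limma adjusted p = 0.116). Probe set 1441919_x_at gave -1.32 (95% interval -2.28 to -0.33, limma adjusted p = 0.129), also with 9 of 10 high-fat mice below the low-fat median. Probe set 1448544_at gave -0.88 (95% interval -1.79 to 0.05), with 7 of 10 below. All 3 Crat probe sets thus lay lower on the high-fat diet, and none passed the threshold. After quantile normalisation 1417008_at and 1441919_x_at stood at only -0.24 and -0.23, and 1448544_at at -1.48 (limma adjusted p = 0.0405).

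Pex11a, a membrane protein that drives elongation and division of peroxisomes and is known as a PPAR-alpha target, showed near-complete overlap of the diets. Probe set 1419365_at ran from -1.99 over a median of 0.18 to 1.38 in low-fat mice and from -1.47 over 0.32 to 1.87 in high-fat mice. Its standardised difference was 0.19 (95% interval -0.70 to 1.06), and that of 1449442_at was 0.0518 (95% interval -0.83 to 0.93).

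Although the diets did not separate them, some pairs of member probe sets varied together from mouse to mouse. With diet means removed and mice permuted within diets (100000 resamples, two-sided), 140 pairs of probe sets of different genes were compared over the 20 mice. Of these 15 had adjusted p-values under 0.05 for both Pearson's r and Spearman's rho, 12 of them positive and 3 negative. The 12 positive pairs came from only 7 pairs of genes, because several probe sets of a gene were counted. Pex11a was in 5 of these 12. No share over pairs of other probe sets was computed, so whether members pair more often than other genes is not known. For Ehhadh alone, the 99th percentile of rho over 34927 named probe sets of other genes was 0.60. Both values of a pair come from the same array, so anything that varies between arrays is shared. Ehhadh and Pex11a 1419365_at had r = 0.79 (permutation p = 4e-05, adjusted 0.00280) and rho = 0.73 (permutation p = 0.00054, adjusted 0.0189). Leaving out the 2 mice farthest from the Ehhadh median gave r = 0.61, and r was 0.89 within low-fat and 0.69 within high-fat mice. Ehhadh and Crat 1417008_at gave r = 0.76 (permutation p = 0.00015, adjusted 0.00525) and rho = 0.62 (permutation p = 0.00472, adjusted 0.0413), with r = 0.52 without the 2 farthest mice. Low-fat replicate 9 was the lowest low-fat mouse in 6 of the 18 probe sets, those of Ehhadh, Acaa1b and 1 each of Pex11a, Crat, Acaa1a and Abcd3. High-fat replicates 2 and 9 were each the lowest high-fat mouse in 7.

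Of the 3 negative pairs, 2 held Acox2, with Acaa1b and with Abcd3 1416679_at. With Hsd17b4, Acox2 had rho = 0.0737 for 1417369_at and -0.52 for 1455777_x_at (permutation, adjusted p = 0.899 and 0.102). Acox2 was also negative with other members that passed by only 1 of the 2 measures. These were Acaa1a 1456011_x_at (rho = -0.63, permutation, adjusted p = 0.0391), Ehhadh (r = -0.72, adjusted p = 0.00747) and Crat 1448544_at (r = -0.72, adjusted p = 0.0110). With Acaa1b, Acox2 had r = -0.86 (permutation p = 3e-05, adjusted 0.00280) and rho = -0.85 (permutation p = 1e-05, the smallest these resamples can give, adjusted 0.00140). Without the 2 mice farthest from the Acox2 median r was -0.83, and it was -0.83 within low-fat and -0.87 within high-fat mice. With Abcd3 1416679_at it had r = -0.73 (permutation p = 0.00064, adjusted 0.0110) and rho = -0.84 (permutation p = 2e-05, adjusted 0.00140), with r = -0.71 without the 2 mice farthest from the Abcd3 median. Low-fat replicate 9 was thus the highest low-fat mouse for Acox2 and the lowest for Acaa1b and Abcd3 1416679_at. High-fat replicate 9 was likewise the highest high-fat mouse for Acox2 and the lowest for these same probe sets.

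**Figure D3:**
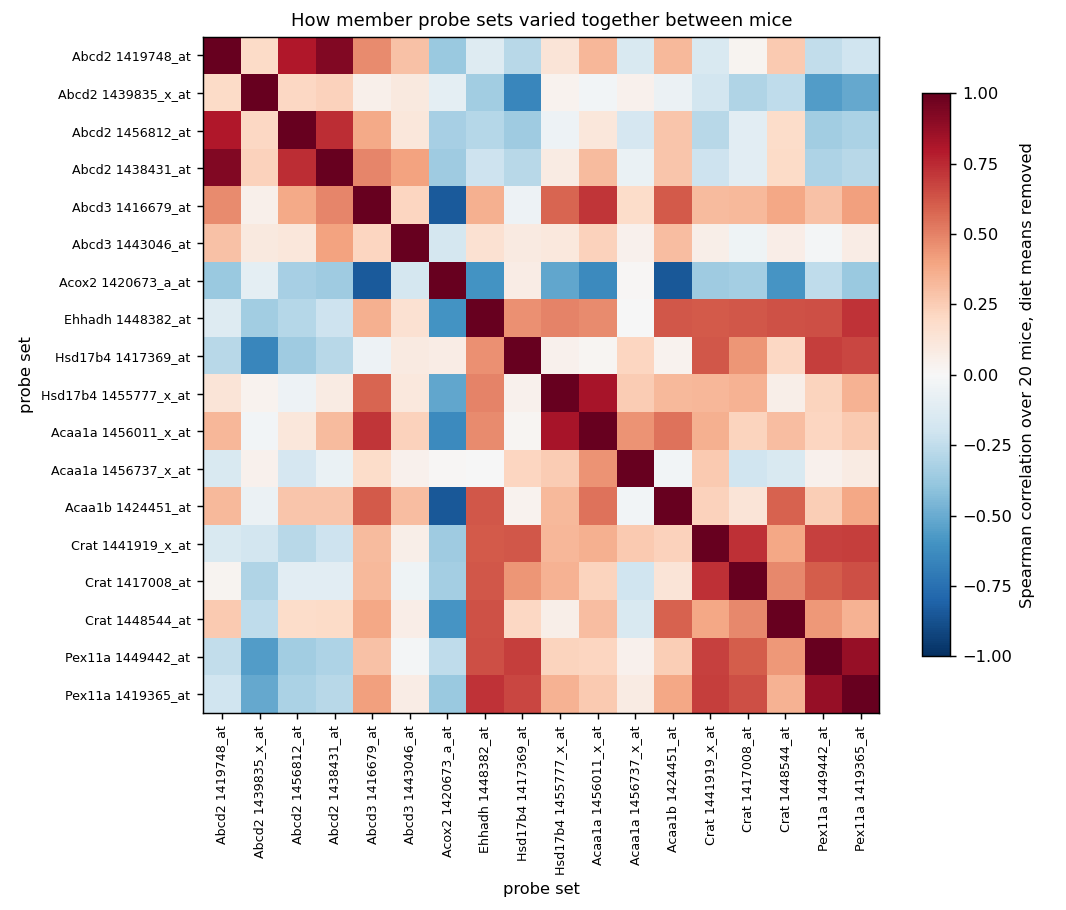
Spearman correlation (colour, from -1 in blue to 1 in red) between each pair of the 18 member probe sets over 20 mice after removal of the diet means. Ehhadh is red against both Pex11a probe sets and all 3 of Crat, and Acox2 is blue against Acaa1b, at -0.85.

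Among named probe sets of other genes, those whose order of mice was most like that of Ehhadh were Mmadhc (Spearman 0.92), Nceh1 (0.88), Slc22a5 (0.85), Tmem33 (0.85) and Rab9 (0.85), over 20 mice with diet means removed. The 99th percentile of this measure over 34927 named probe sets was 0.60. Slc22a5 encodes the carnitine transporter of the cell membrane, and Mmadhc acts in the handling of cobalamin. None of the 5 passed the diet comparison, with standardised differences from -0.23 for Tmem33 to 1.15 for Nceh1.

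Of the other genes of peroxisomal beta-oxidation, 0 of 14 measured passed in either direction by limma after adjustment, and 6 had a probe set with an unadjusted p under 0.05. These were 9 of 26 probe sets (34.6%), against 15.1% of all probe sets. Of the 9, 7 were higher and 2 lower, where 7.86% and 7.28% of all probe sets were. They include every probe set of Nudt7, and probe sets of a gene share its transcript. Their 26 probe sets had a median standardised difference of 0.21, against 0.0355 for all probe sets. Nudt7, a peroxisomal enzyme that degrades coenzyme A, had the smallest p. Its probe set 1453685_at stood at 1.66 (95% interval 0.62 to 2.68, limma adjusted p = 0.0517), and its other 3 probe sets stood at 1.04 to 1.21. In 89% of the pairs of a low-fat and a high-fat mouse, Nudt7 1453685_at was higher in the high-fat mouse. Slc27a2, a very-long-chain acyl-CoA synthetase named here after its value was seen, stood at 2.74 (95% interval 1.47 to 3.97), with all 10 high-fat mice above the low-fat median, and turned to -1.31 after median centring of the arrays. Its SD within diets was only 5.16e-07, far below the spread of the array medians, so the value of -1.31 mostly returns those medians. Its call turned on the test: the limma adjusted p was 0.303, and it was 0.00376 without moderation and 0.00668 by the exact Wilcoxon test.

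Of 15 measured genes of peroxisome biogenesis and division, 2 rose and 1 fell by limma after adjustment, and the other 12 did not pass. Of their 35 probe sets 3 rose and 1 fell, where 1.11% of all probe sets rose and 1.2% fell. Pex11g, a relative of Pex11a, rose with 2 of its 3 probe sets. Probe set 1430857_s_at went from a low-fat median of 0.38 (lowest -2.88, highest 1.72) to a high-fat median of 2.61 (lowest 1.68, highest 3.61). Its standardised difference was 2.58 (95% interval 1.35 to 3.77, limma adjusted p = 0.00375), 1429407_at gave 2.23 (limma adjusted p = 0.0104), and 1430856_at gave 1.46 and did not pass (limma adjusted p = 0.0874), though it did without low-fat replicate 9 (0.0315). The diets touched only at their edges for 1430857_s_at, with the high-fat mouse higher in 99% of pairs.

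Pex2, a ubiquitin ligase of the import machinery, rose with probe set 1420711_a_at (2.88, 95% interval 1.58 to 4.14, limma adjusted p = 0.00188) and stood at 0.53 with 1437443_at. That rise turned to -0.65 after quantile normalisation and to -0.71 after median centring of the arrays. Pex5, the receptor that carries most matrix enzymes of the pathway into the organelle, fell with probe set 1426770_at (-2.06, 95% interval -3.14 to -0.94, limma adjusted p = 0.0166) and stood at -0.55 with 1422063_a_at. After quantile normalisation Pex5 1426770_at stood at -0.64 and no longer passed (limma adjusted p = 0.353).

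**Figure D4:**
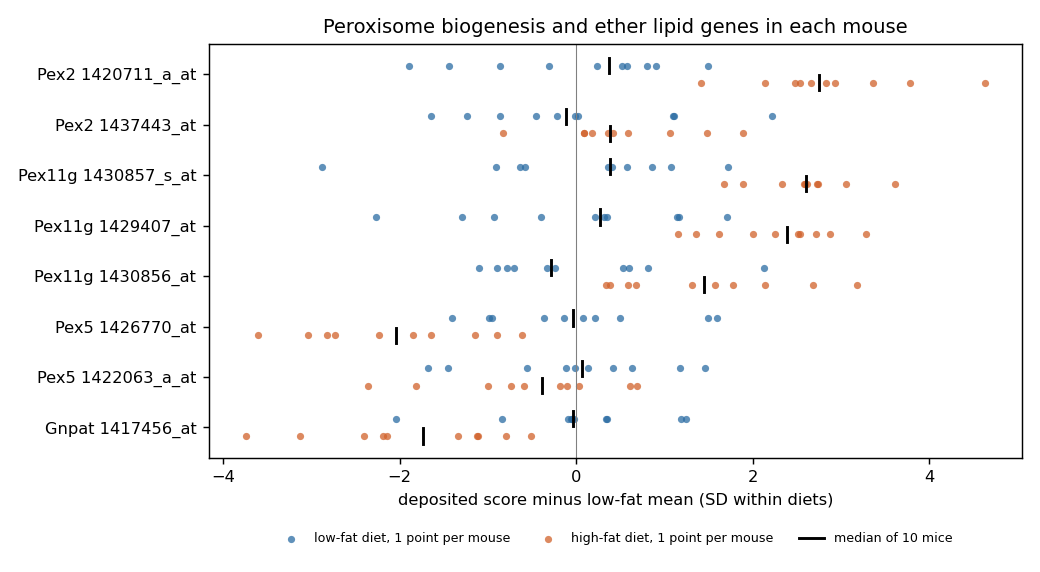
Scores of Pex2, Pex11g, Pex5 and Gnpat probe sets in each mouse (horizontal axis, distance from the low-fat mean in units of the SD within diets), low-fat in blue, high-fat in orange, black bars for medians of 10 mice. The orange points of Pex2 1420711_a_at and of Pex11g lie to the right (Pex2 turned to -0.65 after quantile normalisation and -0.71 after median centring), and those of Pex5 1426770_at and Gnpat to the left.

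In other peroxisomal metabolism, 1 of 19 measured genes fell and 0 rose by limma after adjustment. Of their 33 probe sets 1 fell and 0 rose, where 1.2% of all probe sets fell and 1.11% rose. The gene that fell was Gnpat, which starts ether lipid synthesis in the peroxisome (-1.85, 95% interval -2.89 to -0.77, limma adjusted p = 0.0376, and -0.76 after quantile normalisation). Its call did not survive 12 of the 20 omissions of a single mouse, low-fat replicates 4 to 10 and high-fat replicates 1, 2, 3, 9 and 10, with adjusted p-values of 0.0512 to 0.0655. Phyh, which starts the alpha-oxidation of phytanic acid and is named here after its value was seen, stood at 2.38 (95% interval 1.19 to 3.52), with all 10 high-fat mice above the low-fat median. Its limma adjusted p was 0.170, and it was 0.00910 without moderation and 0.0175 by the exact Wilcoxon test. The SD of Phyh within diets was only 8.16e-07, and after median centring it stood at -1.30, a value that mostly returns the array medians. Cat, of the same list and also named after its values were seen, stood lower, at -0.88 and -1.12. Neither of its probe sets passed (limma adjusted p = 0.358 and 0.215). Of the PPAR-alpha pathway and its targets, 0 of 18 measured genes passed by limma after adjustment, and 5 had a probe set with an unadjusted p under 0.05. These were 6 of 34 probe sets (17.6%), close to the 15.1% of all probe sets. Of the 6, 5 were lower on the high-fat diet and 1, that of Creb3l3, was higher. Among all probe sets 7.28% were lower and 7.86% higher at this threshold. At any p, 23 of the 34 stood lower. Their 34 probe sets had a median of -0.21, and the smallest p belonged to Creb3l3, a fasting-responsive transcription factor (1.25, 95% interval 0.27 to 2.20, limma adjusted p = 0.160), which turned to -0.13 after quantile normalisation and -1.07 after median centring.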

How the data were processed

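Total liver RNA of 20 mice was labelled with a 3′ kit and hybridised to Affymetrix arrays, 1 per mouse, per the labels' protocols. Each deposited value is a score that the authors normalised, by a method not given in the sources used here. Because differences between arrays are compressed (median SD over arrays 1.17e-05), sizes are given in SD units. The file held 0 columns of other samples. Of 45037 probe sets, after 64 controls were left out, 34945 had 1 symbol in the platform annotation, 932 several and 9160 are unnamed here. No filter on low values was used, and all 18 member probe sets were tested.

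limma 3.58.1 (R 4.3.3; lmFit, eBayes, two-sided, no covariate) was fitted on all probe sets, with Benjamini-Hochberg adjustment and a threshold of 0.05. Moderation (0.778 prior degrees of freedom) lowers the statistic of probe sets with very small SDs. Intervals come from the noncentral t distribution. The fit was tested on simulated data. Permutations used scipy 1.17.1. Named genes are all members, genes past the threshold in 4 pathway lists (at most 5 each, otherwise the smallest p), and the 5 most like Ehhadh. Slc27a2, Phyh and Cat were added after their values were seen. Members and lists were chosen with earlier results of these data known. Alternatives covered normalisation, low values, variance model, weights, replicate number, probe sets, test, threshold and each mouse left out.

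Replicate numbers are not stated to pair mice: only 2 of 10 same-numbered pairs had deviations correlated above 0.1.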

Additional observations from a re-analysis of the deposited data

Results flagged for a closer look

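Gaps between single mice were examined in 62 groups of 10, over the members and the genes named from the other peroxisomal and PPAR-alpha lists. Genes added after their values were seen were left out. Of these groups 1 held a mouse far from the rest, while chance gives about 1 in 20. For Abcd2 1419748_at, low-fat replicate 8 stood above the other low-fat mice (gap over range 0.492), at 3.08 SD from the low-fat mean. Without it the standardised difference went from -1.40 to -1.59 and the limma adjusted p from 0.106 to 0.0856.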

How the results depend on the processing

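The count of 0 member probe sets held under the upper probe sets by mean, the trend and robust fit, no moderation, array weights, the replicate block, the omission of suffixed probe sets, 1 or averaged probe sets per gene, the Wilcoxon test, a threshold of 0.01 and every omission of 1 mouse (0 to 0). It became 3 after quantile normalisation and 12 after median centring of arrays, which also moved the count over all probe sets from 1043 to 4578 and 38616, and that of other pathway genes from 4 to 7 and 51. The median of all probe sets shifted there from 0.0355 to -0.41 and -1.29. Quantile normalisation left 5 member probe sets, those of Ehhadh, Hsd17b4, Acaa1b and 1 of Pex11a, with 1 value on all arrays. Over all probe sets, 538 passed with the replicate block, 627 without suffixed probe sets, 635 with 1 probe set per gene, 272 at a threshold of 0.01 (2 pathway genes) and 768 to 1124 without 1 mouse (3 to 5 pathway genes).

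With the replicate block Pex5 (adjusted p = 0.0511) and Gnpat (0.0838) no longer passed and Nudt7 did (0.0252); Gnpat was also lost with the trend and robust fit (0.106). Nudt7 passed with the upper probe sets too (0.0324), and with 1 mouse omitted, which was low-fat replicate 3 (0.0371) or 4 (0.0239) in some fits and high-fat replicate 7 (0.0367) or 9 (0.0326) in others. Pex11g 1430856_at passed with array weights (0.0420) and the replicate block (0.0228). Pex7 (0.0372) and Nudt19 (0.0388) passed without low-fat replicate 7. Same-numbered mice had correlated deviations from -0.15 to 0.23, and 2 of 10 matched their own number best.

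Signs turned after median centring for Abcd3 (-1.30 and -1.28), Acox2 (-0.47), Hsd17b4 1417369_at (-1.19), Acaa1a (-0.40 and -0.55) and Pex11a 1449442_at (-0.13), and after quantile normalisation for Abcd3 1443046_at (-0.63), Acox2 (-0.22) and Acaa1a (-0.72 and -0.98). Where the SD within diets lies far below the spread of the array medians, the sign after median centring is mostly that of the medians, reversed. Leaving out 1 mouse turned the sign of Abcd3 1443046_at (-0.31 to 0.16), Acox2 (-0.23 to 0.28), Pex11a 1449442_at (-0.12 to 0.25) and Pex11a 1419365_at (-0.0400 to 0.39), and of no other member. The paralog contrasts were chosen after seeing the data; the Acaa1 contrast was 0.60 after median centring (permutation p = 0.0026), and could not be computed after quantile normalisation. With 10 mice per diet, shifts of 1 SD were not recovered in simulated data, where only 200 probe sets were shifted and the adjusted threshold was stricter than here.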
